A study of Mus musculus with 10 samples.

Results

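The 9 genes described here encode Fos, Fosb, Fosl1, Fosl2, Jun, Junb, Jund, Atf3 and Maff, transcription factors of the activator protein 1 (AP-1) group and its relatives. They were chosen by gene symbol from a table of 57010 mouse gene identifiers, with earlier results of these data known. Each symbol matched 1 identifier. All 9 were among the 12455 genes that were tested because their normalized read count averaged 10 or more. The data are 10 RNA sequencing libraries of primary bone marrow-derived macrophages. Marrow came from wild-type (WT) mice or from mice without WASp (WKO), a protein that drives branched actin assembly in blood cells. All cultures were grown for 7 days in RPMI medium with 20 ng/mL recombinant mouse MCSF, the growth factor that turns marrow precursors into macrophages. There were 2 WT unconfined libraries (replicates 1 and 3), 2 WKO unconfined libraries (replicates 1 and 3), 3 WT confined libraries (replicates 2, 3 and 6) and 3 WKO confined libraries (replicates 1, 2 and 5). Confined cells were held for 1 h at a height of 3 µm under silicone (PDMS) micropillars. The labels do not give the strain, age or sex of the mice, the WKO allele, or whether libraries with different numbers came from different mice, so p-values measure the spread between these libraries, which may be technical. Nor do the labels say how the unconfined cells were handled, so handling and confinement cannot be told apart.

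AP-1 factors share a basic region that touches DNA and a leucine zipper that joins 2 proteins into a dimer. Jun proteins can pair with each other or with Fos proteins, whereas Fos proteins need a Jun partner. Many of these genes are immediate early genes, which are transcribed within minutes of a stimulus by factors already present in the cell, and whose RNAs are short-lived. Atf3 is a stress-induced member of the ATF/CREB group that can pair with Jun proteins, and in macrophages it is known as a brake on inflammatory genes. Maff is a small Maf protein, which has the zipper and the DNA-binding region but no activation domain. The question the design allows is which of these genes change after confinement in each genotype, and whether WASp loss alters their level or their response.

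The promoters are shown first because the genes that moved together can be compared there by sequence. RefSeq (GRCm38.p6) gave a window from 250 bases before to 50 bases after the start for 8 of the 9 genes. Below are the 250 bases before the start for Fos, Fosb, Junb and Maff, 4 of the 5 genes that rose after confinement in both genotypes, and for Atf3, which passed the test in neither. The window of the other such gene, Fosl2, lies wholly within GENCODE exons of Fosl2 and is not printed; it holds no TGACG. Positions count the start base as 0, sequences run 5′ to 3′ on the strand of the gene, and capitals mark TGACG (the core of the cAMP response element, on either strand), TATAAA and the NF-kB motif where they lie in the printed bases. The Fos window is chr12:85473640-85473889 on the plus strand, the Fosb window is chr7:19310046-19310295 on the minus strand, and the Junb window is chr8:84978749-84978998 on the minus strand. The Maff window is chr15:79347270-79347519 on the plus strand, before the second of the 3 Maff starts in RefSeq, and the Atf3 window is chr1:191183334-191183583 on the minus strand.
Fos: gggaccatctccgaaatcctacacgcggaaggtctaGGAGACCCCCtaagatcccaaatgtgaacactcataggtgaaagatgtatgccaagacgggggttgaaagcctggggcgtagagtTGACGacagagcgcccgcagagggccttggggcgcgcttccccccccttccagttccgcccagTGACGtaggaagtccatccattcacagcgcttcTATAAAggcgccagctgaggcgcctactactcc
Fosb: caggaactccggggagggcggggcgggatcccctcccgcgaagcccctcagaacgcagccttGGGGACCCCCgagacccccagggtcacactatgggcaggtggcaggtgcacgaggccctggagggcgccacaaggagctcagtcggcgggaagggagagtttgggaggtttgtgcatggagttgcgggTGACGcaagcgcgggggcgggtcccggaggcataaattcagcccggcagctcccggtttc
Junb: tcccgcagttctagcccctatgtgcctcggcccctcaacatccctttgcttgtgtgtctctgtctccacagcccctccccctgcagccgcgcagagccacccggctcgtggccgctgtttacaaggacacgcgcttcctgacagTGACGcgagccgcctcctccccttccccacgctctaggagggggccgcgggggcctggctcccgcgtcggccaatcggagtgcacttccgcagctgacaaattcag
Maff: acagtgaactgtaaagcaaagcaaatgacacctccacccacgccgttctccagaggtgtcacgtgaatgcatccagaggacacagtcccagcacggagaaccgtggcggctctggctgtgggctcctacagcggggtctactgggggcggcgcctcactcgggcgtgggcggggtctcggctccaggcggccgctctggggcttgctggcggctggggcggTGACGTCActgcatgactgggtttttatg
Atf3: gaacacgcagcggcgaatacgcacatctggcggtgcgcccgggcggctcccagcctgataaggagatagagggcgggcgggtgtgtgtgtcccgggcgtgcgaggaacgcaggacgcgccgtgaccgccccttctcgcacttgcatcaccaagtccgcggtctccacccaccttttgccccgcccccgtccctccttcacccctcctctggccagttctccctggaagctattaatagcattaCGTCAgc

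TGACG, searched on both strands, lay in a window of 5 of the 8 genes, against 20.8% of the 32851 RefSeq windows of 300 bases. A gene counts here if any of its windows holds the motif, and Maff has 3 windows. Counts of genes and shares of windows thus differ in unit. In Fos it occurred at -129 and -66, in Fosb at -60 and in Junb at -106. Maff had the full palindrome TGACGTCA, which contains TGACG on each strand, at -29; 1.79% of all windows hold it. A further TGACG lay at -122 before the last Maff start. In Atf3 the reverse complement of TGACG lay at -7. The NF-kB motif, searched by name on both strands, lay in a window of Fos, Fosb, Fosl2 and Maff, in Maff before its last start, against 8.46% of all windows. The 250 bases searched before the Fosl2 start all lie in GENCODE exons of Fosl2, as do 95 of those before the last Maff start. TATAAA lay at -33 in Fos and at 0 in Junb, just past the printed bases, against 13.6% of all windows; the GENCODE start of Junb lies 30 bases downstream of the RefSeq start. TGANTCA, the classical AP-1 site, and the CArG box, the site of serum response factor, were in 0 of these windows, against 7.81% and 1.63% of all windows. Jun and Jund held none of the 6 motifs in these windows. These matches describe letters only. Bases outside the windows were not searched, so a motif missing here may lie further from the start. The RefSeq start of Jund lies 1210 bases before the GENCODE start, and the GENCODE gene of Atf3 reaches far upstream of the start used here.

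The genes are spread over the genome. Per GENCODE M21 on GRCm38, the build named in the submitters' processing notes, Fos is at chr12:85473890-85477273 (plus strand), Fosb at chr7:19302696-19310051 (minus), Fosl1 at chr19:5447547-5455946 (plus) and Fosl2 at chr5:32135801-32157842 (plus). Jun is at chr4:95049034-95052222 (minus), Junb at chr8:84974484-84978718 (minus) and Jund at chr8:70698949-70700616 (plus). Atf3 is at chr1:191170296-191218039 (minus) and Maff at chr15:79346621-79359076 (plus). The 3 Jun genes have 1 exon each, while the longest transcript has 4 exons in each of the 4 Fos genes and in Atf3, and 3 in Maff. Encoded proteins range from 156 residues in Maff and 181 in Atf3 to 380 in Fos.

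4 of the 9 share exon bases with a gene on the opposite strand, and the use of strand in counting is not given, so reads there cannot be assigned with certainty. Fosl1 shares 1163 bases with Ccdc85b, which had group means between 105.7 and 179.7 normalized read counts, above every Fosl1 value. Jund shares 877 bases with Gm11175 (group means between 11.5 and 17.7). Jun shares 232 bases with Junos (29.5 to 55.0) and Junb shares 173 bases with Prdx2 (1969 to 2154). Counts of Fosl1 are therefore uncertain, and those of the 3 Jun genes in part. In a comparison of transcripts, no other similarity of 95% identity over at least 100 bases was found outside these overlaps.

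Sequencing depth was between 13295701 and 19329908 reads per library, so that 3 reads, the detection floor used here, equal a normalized read count between 2.35 and 3.59. The target gene Was had between 92 and 156 reads in the 5 WKO libraries and between 1338 and 2053 in the 5 WT libraries. All 7 macrophage markers were well above the floor, with sums between 173793 and 300523. Markers of other cell types moved with the groups. The sum of 10 stromal cell markers was 770 to 1534 in WT unconfined, 163 to 633 in WT confined and 2001 to 2295 in WKO unconfined libraries, and 705 to 8309 in WKO confined libraries. The highest sum was in WKO confined replicate 5, which had the highest value of 9 of the 10 markers. The sum of 10 neutrophil and progenitor markers was 6891 to 10837 in WT unconfined, 2545 to 7933 in WT confined, 24792 to 29830 in WKO unconfined and 6971 to 27924 in WKO confined libraries. B cell markers summed to 408 to 859 in WT and 1572 to 5195 in WKO libraries. T and NK cell markers summed to at most 7.06. The 3 dendritic cell markers summed to between 7.23 (WT confined) and 53.9 (WKO confined replicate 5). Of these, 2 had a mean of at least 10, and Xcr1 was at 0 in all libraries. In bulk RNA, more cells of a type and more RNA per cell cannot be told apart. The part of these other cells in the results on the 9 genes was not tested.

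After confinement most of the 9 genes rose in both genotypes. In WT cells 5 of 9 passed the test as higher (Fos, Fosb, Fosl2, Junb and Maff), where 0.891% of all tested genes did, and 0 passed as lower (0.265% of all). In WKO cells 7 of 9 passed as higher, where 1.49% of all tested genes did: the same 5 with Jun and Jund. None passed as lower in WKO (0.233% of all). The median log2 difference of the 9 genes was 1.52 in WT and 2.13 in WKO, against -0.007 and -0.013 over all tested genes. Because the 9 genes were chosen with earlier results of these data known, their contrast with all tested genes is a description only. The test was limma on log2(normalized read count + 1) in 1 fit of all 10 libraries, with p-values adjusted by Benjamini-Hochberg over all tested genes and a threshold of 0.05. All 6 confined libraries lay above all 4 unconfined ones for 7 of the 9 genes, which was so for 4.46% of all tested genes, and below them for 0 of the 9, against 2.93%. Taken by genotype, the confined libraries lay wholly above the unconfined ones for 8 of 9 genes in WT (18.3% of all tested genes) and for 8 of 9 in WKO (14.5%), each time all but Atf3. They lay wholly below for 0 of 9 in WT (17.7% of all tested genes) and in WKO (13.8%). The WT and WKO comparisons use different libraries but share 1 estimate of spread. The counts were 5 and 7 without WKO confined replicate 5, but the WT count was 2 without WT unconfined replicate 1 and the WKO count was 4 without WKO unconfined replicate 3. Without the mean-variance trend they were 2 and 3.

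**Figure D1:**
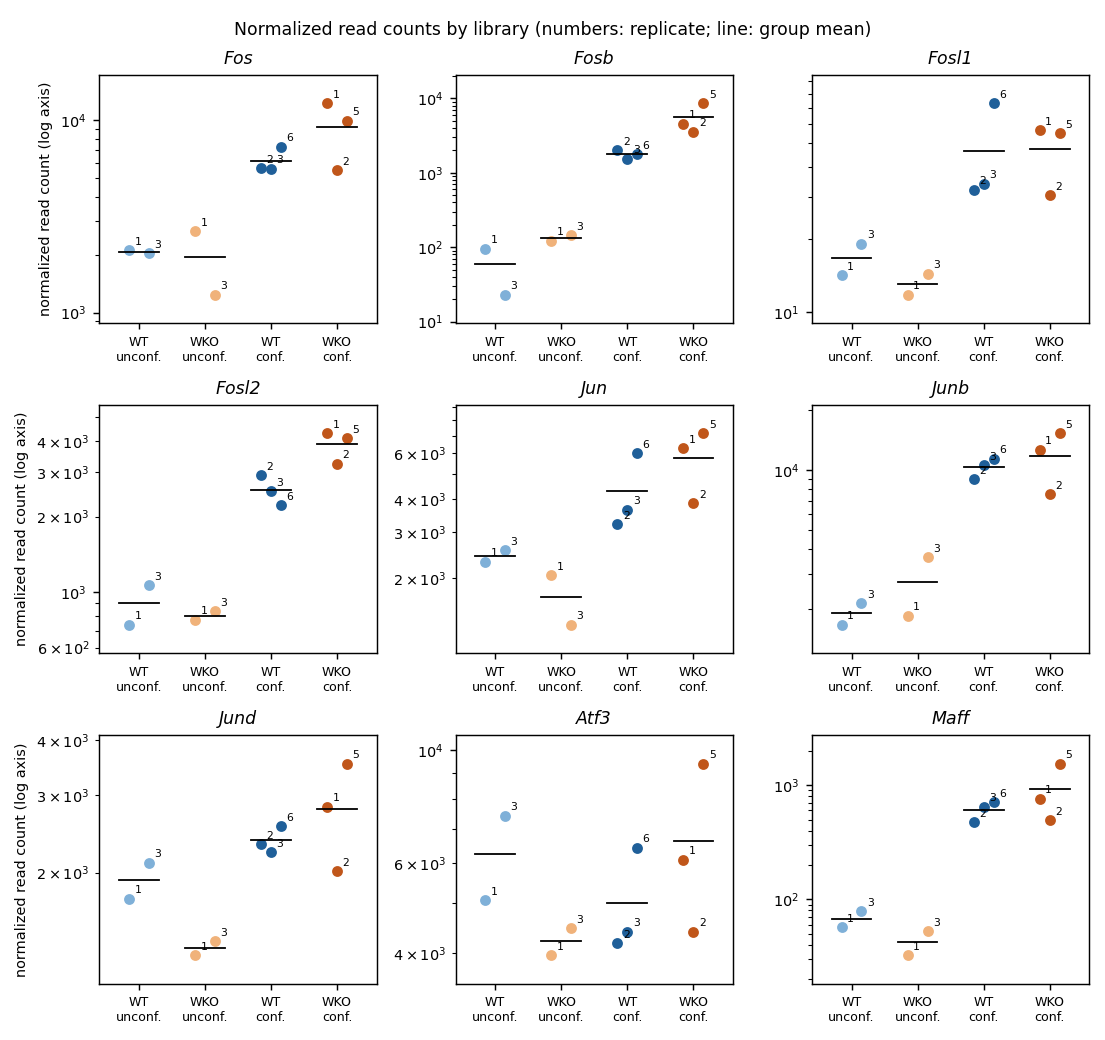
Normalized read counts of the 9 genes in each library on log axes, 1 panel per gene; points are libraries marked with their replicate number, and lines are group means. The confined libraries lie above the unconfined ones in all panels except those of Jund and Atf3.

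Fosb, a Fos protein that is nearly silent in resting cells and appears after stimulation, changed most. Its normalized read counts were 95 and 23.0 in the WT unconfined libraries (replicates 1 and 3) and 2011, 1546 and 1779 in the WT confined libraries (replicates 2, 3 and 6). In WKO cells they were 122 and 146 unconfined (replicates 1 and 3) and 4550, 3556 and 8619 confined (replicates 1, 2 and 5). No confined library came near an unconfined one, and every WKO confined library was above every WT confined library. Fosb rose by 5.20 on the log2 scale in WT (SE 0.471, limma adjusted p 0.000455) and by 5.27 in WKO (SE 0.471, limma adjusted p 0.000333). Counted from the largest rise, this difference had rank 8 of the 12455 tested genes in WT and rank 11 in WKO.

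Maff, the small Maf gene, came next. Its normalized read counts were 57.0 and 78.7 in WT unconfined libraries and 472, 649.9 and 705 in WT confined libraries. The WKO values were 32.6 and 52.6 unconfined and 760.2, 496 and 1543 confined. The WKO unconfined values were the lowest and WKO confined replicate 5 was the highest. Maff rose by 3.15 in WT (SE 0.393, limma adjusted p 0.00277) and by 4.30 in WKO (SE 0.393, limma adjusted p 0.000333). Without WT unconfined replicate 1 the WT difference was 2.92 and did not pass (limma adjusted p 0.064).

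Junb, a Jun protein and the partner of Fos proteins in many cells, had the highest level of the 9 genes after confinement. Its normalized read counts were 1657 and 2124 in WT unconfined libraries and 8991, 10526 and 11392 in WT confined libraries. WKO cells had 1842 and 3624 unconfined and 12614, 7520.0 and 15269 confined. The confined ranges of the genotypes overlapped. Junb rose by 2.45 in WT (SE 0.300, limma adjusted p 0.00268) and by 2.13 in WKO (SE 0.300, limma adjusted p 0.00409). The WT call was lost without WT unconfined replicate 1 (log2 difference 2.27, limma adjusted p 0.0605) and the WKO call without WKO unconfined replicate 1 (1.64, limma adjusted p 0.0724).

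Fos, the founding member of the family, was already abundant in unconfined cells. It had normalized read counts of 2107 and 2041 in WT unconfined and 5607, 5589 and 7257 in WT confined libraries. The corresponding WKO counts were 2643 and 1241 unconfined and 12211, 5494 and 9914 confined. The lowest WKO confined value lay below every WT confined value, and the other two lay above them. Fos rose by 1.56 in WT (SE 0.328, limma adjusted p 0.0463) and by 2.27 in WKO (SE 0.328, limma adjusted p 0.0048). The WT call was a narrow one: it was lost without any 1 of the 5 WT libraries (limma adjusted p between 0.12 and 0.292) and had an adjusted p of 0.0663 in edgeR's quasi-likelihood test on recovered reads. The WKO call was lost without WKO unconfined replicate 3 (log2 difference 1.72, limma adjusted p 0.0639).

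Fosl2, also called Fra-2, a Fos protein without the strong activation domain of Fos, had the smallest standard error of the 9 genes. Its normalized read counts were 740.0 and 1062 in WT unconfined and 2931, 2519.8 and 2217 in WT confined libraries. For WKO the counts were 774 and 836 unconfined and 4293, 3246 and 4109.8 confined. All 3 WKO confined libraries were above all 3 WT confined libraries. Fosl2 rose by 1.52 in WT (SE 0.177, limma adjusted p 0.0026) and by 2.26 in WKO (SE 0.177, limma adjusted p 0.000189). It passed in both genotypes without any 1 of the libraries; the highest limma adjusted p was 0.0456, in WT without unconfined replicate 1.

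Fosl1, also called Fra-1, was the least abundant of the 9 genes. Its normalized read counts were 14.2 and 19.2 in WT unconfined and 32.1, 34.0 and 73.1 in WT confined libraries. In WKO libraries the counts were 11.8 and 14.5 unconfined and 56.5, 30.5 and 55.1 confined. All confined values were above all unconfined values, but the difference passed in neither genotype: it was 1.33 in WT (95% interval 0.30 to 2.36, limma adjusted p 0.258) and 1.73 in WKO (95% interval 0.70 to 2.76, limma adjusted p 0.108). DESeq2 on recovered reads gave an adjusted p of 0.0407 in WKO. Reads of Fosl1 may include those of Ccdc85b.

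Jun, the partner that can bind DNA as a dimer with itself, had normalized read counts of 2302 and 2544 in WT unconfined and 3206, 3647 and 5994 in WT confined libraries. WKO libraries had 2046 and 1322 unconfined and 6260.0, 3849 and 7134 confined. Groups did not overlap by condition in either genotype, and replicate 6 stood above the other WT confined libraries. Jun rose by 1.76 in WKO (SE 0.294, limma adjusted p 0.0116). In WT the difference was 0.77 (95% interval 0.13 to 1.41) and did not pass (limma adjusted p 0.302). The WKO call was lost without WKO unconfined replicate 3 (log2 difference 1.44, limma adjusted p 0.172).

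Jund, which is usually described as the steadily expressed Jun gene, had normalized read counts of 1745 and 2107 in WT unconfined and 2324, 2229 and 2552 in WT confined libraries. The WKO values were 1300.3 and 1397 unconfined and 2824, 2017 and 3538 confined. The 2 WKO unconfined libraries held the lowest values of all 10. Jund rose by 1.01 in WKO (SE 0.191, limma adjusted p 0.0226), and in WT the difference was 0.30 (95% interval -0.12 to 0.72, limma adjusted p 0.577). The WKO call was lost without WKO unconfined replicate 1 (log2 difference 0.96, limma adjusted p 0.242) or replicate 3 (1.07, limma adjusted p 0.153).

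Atf3 passed in neither genotype, and in WT it stood apart from the genes that passed there. Its normalized read counts were 5068 and 7429.8 in WT unconfined and 4178, 4402 and 6428 in WT confined libraries. The WKO values were 3960.1 and 4466 unconfined and 6084, 4402 and 9394 confined. The ranges overlapped by condition in both genotypes. The log2 difference was -0.32 in WT (95% interval -0.93 to 0.29, limma adjusted p 0.7) and 0.59 in WKO (95% interval -0.03 to 1.20, limma adjusted p 0.375). The upper end of the WT interval is below the lower end of that of Fos (0.84), Fosb (4.17), Fosl2 (1.13), Junb (1.80) and Maff (2.29) in the same comparison. In WKO the Atf3 interval overlapped those of Jun (1.12 to 2.40) and Jund (0.60 to 1.43), which passed there. It lay below those of Fos, Fosb, Fosl2, Junb and Maff. The difference between genes was not tested.

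**Figure D2:**
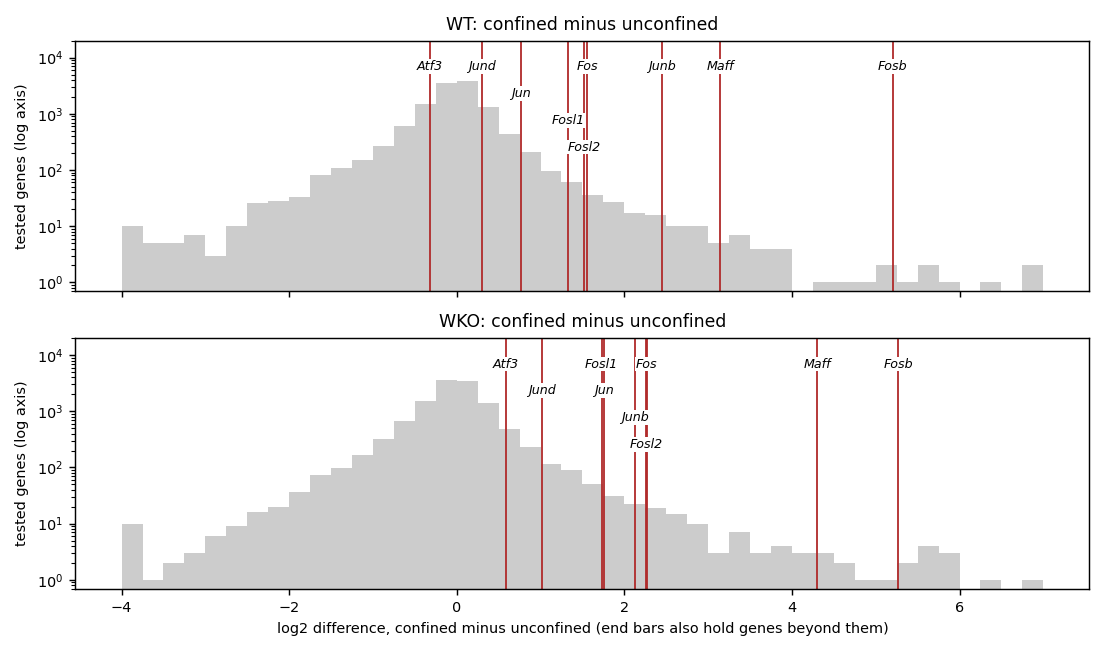
Number of tested genes by log2 difference after confinement (grey bars, log axis) in WT and in WKO cells, with the 9 genes as red lines. Fosb and Maff lie in the upper tail in both genotypes, and Atf3 lies at -0.32 in WT and 0.59 in WKO.

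To compare levels between genes, normalized read counts were divided by the length of the longest annotated transcript and are given per kb. In unconfined cells Atf3 was the most abundant of the 9, at 3149.7 ± 842 per kb in WT and 2123.5 ± 180.3 in WKO (SD, n = 2 each). In WT unconfined cells it was followed by Jund (1155), Junb (1045), Fos (984), Jun (759.8), Fosl2 (138), Maff (34.7), Fosb (15.6) and Fosl1 (8.97) per kb. Jund, Junb and Fos overlapped with their neighbours in this order, as did Fosb and Fosl1, and the other neighbours did not. In WKO unconfined cells the order was Atf3, Junb, Fos, Jund, Jun, Fosl2, Fosb, Maff and Fosl1, and the ranges of the first 4 overlapped from neighbour to neighbour.

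After confinement Junb led, at 5696 ± 672 per kb in WT and 6523 ± 2177 in WKO (SD, n = 3 each). In WT confined cells Fos (2918) and Atf3 (2521) followed with overlapping ranges, then Jund (1419.8) and Jun (1343), also overlapping, then Fosb (470.3), Fosl2 (391), Maff (311) and Fosl1 (24.9) per kb. In WKO confined cells the order was Junb, Fos (4367), Atf3 (3340.0), Jun (1802), Jund (1675), Fosb (1474), Fosl2 (594), Maff (477) and Fosl1 (25.4) per kb. There only Fosb and Fosl2, and Maff and Fosl1, did not overlap as neighbours. Among all tested genes with a known length, Junb was at percentile 93.8 in WT unconfined and 99.1 in WT confined cells by level per kb, while Fosb moved from percentile 15 to 83.8. Dividing by all exon bases of a gene instead left the first and the last gene of the order the same in all 4 groups.

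The makeup of the group shifted with confinement. The sum of the 9 genes was between 5863 and 8167 per kb in the unconfined libraries and between 13105 and 25962 in the confined ones. Atf3 made up between 34.0% and 45.9% of this sum in unconfined and between 14.1% and 18.4% in confined libraries. Within the Jun genes, the share of Junb was 34.1% and 36.3% in WT unconfined, 41.7% and 61.5% in WKO unconfined, and between 63.2% and 70.1% in the 6 confined libraries. Within the Fos genes, Fosb made up between 0.531% and 5.05% of the level per kb in unconfined libraries. It made up between 11.0% and 14.5% in WT confined and 15.7%, 23.2% and 29.8% in WKO confined libraries (replicates 1, 2 and 5). Fos itself stayed the main Fos gene, with between 61.6% and 88.9% in all 10 libraries. These shares are descriptions and were not tested.

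**Figure D3:**
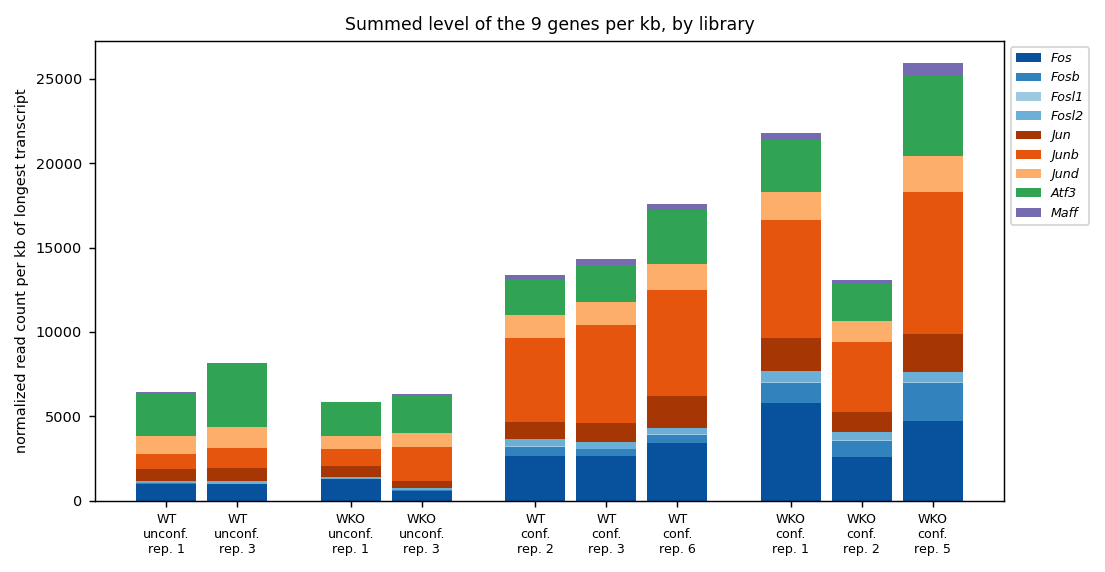
Normalized read counts per kb of the longest transcript for the 9 genes, stacked in each library; bars are libraries in the order WT unconfined, WKO unconfined, WT confined and WKO confined. The sums run from 5863 to 8167 in unconfined and from 13105 to 25962 in confined libraries, with Junb as the largest part after confinement.

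Between the genotypes, limma called none of the 9 genes in either condition. In unconfined cells 0 of the 9 passed, where 0.145% of all tested genes did (0.0482% higher and 0.0963% lower in WKO), and edgeR and DESeq2 also called 0. Fosb and Jund had an unadjusted limma p under 0.05, as did 1196 of the 12455 tested genes. Fosb was higher in both WKO unconfined libraries than in both WT ones, by 1.49 on the log2 scale (95% interval 0.36 to 2.61, limma adjusted p 0.364); the libraries lay apart in that direction for 22.2% of all tested genes. Jun, Jund, Atf3 and Maff were lower in both WKO unconfined libraries than in both WT ones, with log2 differences of -0.56, -0.51, -0.55 and -0.68 and limma adjusted p between 0.467 and 0.683. The libraries of the genotypes were apart in this way, in the lower direction, for 22.7% of all tested genes. The 95% intervals of the other 4 genes all included 0 and reached from -1.45 to 1.18.

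In confined cells 0 of the 9 passed between the genotypes with limma, where 2.59% of all tested genes did (1.38% higher and 1.2% lower in WKO). Fosb and Fosl2 had an unadjusted limma p under 0.05, as did 2087 of the 12455 tested genes. The log2 difference was above 0 for all 9 genes, with a median of 0.43 against 0.004 over all tested genes. Fosb had a difference of 1.55 (95% interval 0.63 to 2.47, limma adjusted p 0.0792), and its libraries did not overlap. edgeR's quasi-likelihood test on recovered reads called it (log2 difference 1.64, adjusted p 0.0394), and so did DESeq2 (1.65, adjusted p 0.0326). Fosl2 had a difference of 0.60 (95% interval 0.26 to 0.95, limma adjusted p 0.0697), and DESeq2 called it (adjusted p 0.00959) while edgeR did not (adjusted p 0.0775). Fosb and Fosl2 were the 2 genes whose libraries lay wholly higher in WKO, which was so for 10.7% of all tested genes; 0 of 9 lay wholly lower, against 10.4%.

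WKO confined replicate 5 held the highest value of all 10 libraries for 6 of the 9 genes: Fosb, Jun, Junb, Jund, Atf3 and Maff. It also had the highest stromal marker sum (8309) and the highest macrophage marker sum (300523). Its neutrophil and progenitor marker sum (6971) was the lowest of the WKO libraries. The part of these cells in the values of the 9 genes was not tested. Without it, the log2 differences between the genotypes in confined cells were 1.18 for Fosb, 0.56 for Fosl2, 0.42 for Fos and 0.25 for Jun. They were 0.08 for Atf3, 0.03 for Maff and 0.01 for Jund, and -0.05 for Fosl1 and -0.07 for Junb. Without WKO confined replicate 2 instead, these differences were 1.82 for Fosb, 0.85 for Fos and Maff, 0.73 for Fosl2 and 0.70 for Jun. For Atf3, Junb, Jund and Fosl1 they were then 0.62, 0.44, 0.42 and 0.36. With array weights, which let the fit give less weight to libraries that scatter more, 4 of the 9 genes were higher and 5 lower in WKO. In that fit Fosb (log2 difference 1.16, adjusted p 0.0206) and Fosl2 (0.40, adjusted p 0.0396) passed.

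**Figure D4:**
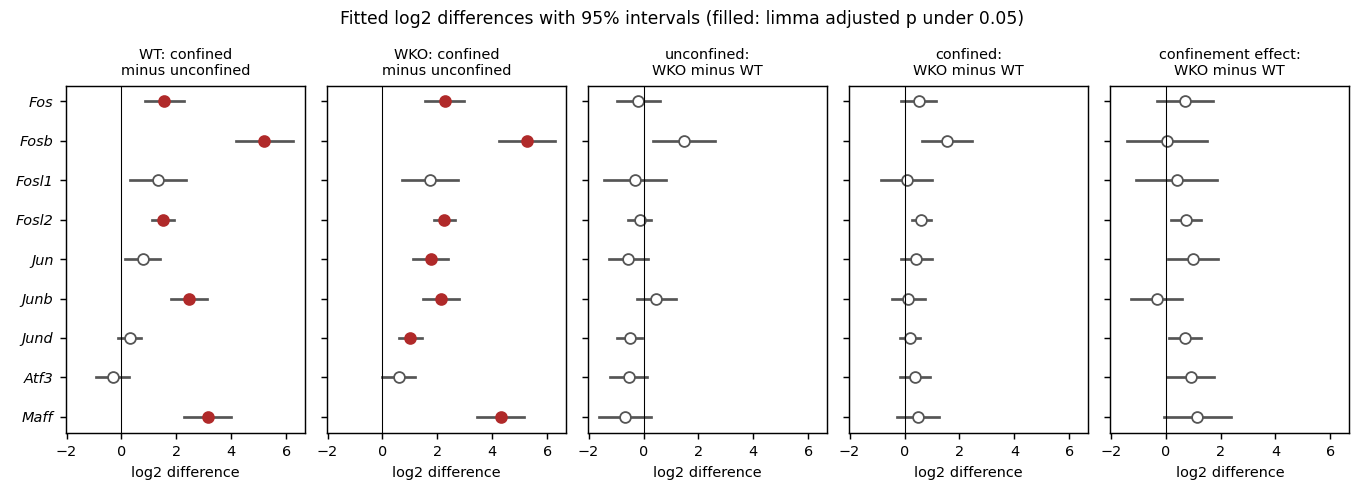
Fitted log2 differences of the 9 genes (points) with 95% intervals (lines) in the 5 comparisons; filled red points have a limma adjusted p under 0.05. The filled points lie in the 2 comparisons of confined with unconfined cells, 5 in WT and 7 in WKO.

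Whether the response to confinement differed between the genotypes was tested by the interaction, that is, the difference after confinement in WKO less the one in WT. None of the 9 genes passed, as was so for all tested genes (0%), and edgeR and DESeq2 called 0 as well. The limma adjusted p was 0.999 for each gene. The estimate was above 0 for 8 of 9 genes, with a median of 0.71 against 0.006 over all tested genes. An unadjusted limma p under 0.05 was found for Fosl2, Jun, Jund and Atf3, and for 258 of the 12455 tested genes. The estimates and 95% intervals were 0.74 (0.19 to 1.29) for Fosl2, 0.99 (0.08 to 1.89) for Jun, 0.71 (0.12 to 1.30) for Jund and 0.91 (0.04 to 1.77) for Atf3. They were 1.15 (-0.06 to 2.37) for Maff, 0.71 (-0.30 to 1.72) for Fos, 0.40 (-1.06 to 1.86) for Fosl1, 0.07 (-1.39 to 1.52) for Fosb and -0.32 (-1.25 to 0.61) for Junb. With so few libraries these intervals are wide, and the adjusted p does not show that the genotypes respond alike. The interaction and the comparisons within a genotype or condition share libraries.

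The other genes of the pathway were read from 3 lists, also chosen with earlier results of these data known. Among genes of related basic leucine zipper factors, 35 of 37 could be tested, and 2 passed as higher and 0 as lower in WT after confinement, against 4 and 0 in WKO; over all tested genes 0.891% passed as higher in WT and 1.49% in WKO. The median log2 difference of the list was 0.007 in WT and 0.058 in WKO, against -0.007 and -0.013 over all tested genes. Cebpb, a factor of macrophage activation, went from 1039 ± 689 to 3562 ± 402 in WT (SD, n = 2 and 3) and rose by 1.95 (limma adjusted p 0.0218). In WKO it went from 904 ± 359 to 3315 ± 588 and rose by 1.92 (limma adjusted p 0.0184). Mafk, a small Maf gene like Maff, went from 352 ± 29.2 to 1050 ± 69.1 in WT (rise of 1.58, limma adjusted p 0.00173) and from 457 ± 130 to 1010 ± 106 in WKO (rise of 1.17, limma adjusted p 0.00569). Nfil3 and Creb5 passed in WKO, with rises of 1.66 and 1.62 (limma adjusted p 0.013 and 0.0399). Between the genotypes in confined cells, 1 of the 35 passed as higher in WKO, where 1.38% of all tested genes did, and 0 as lower, where 1.2% did. The 1 gene was Dbp, a clock-controlled gene, with a difference of 0.93 (limma adjusted p 0.0159).

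Of 32 genes for kinases and factors that act on AP-1 genes, all were tested, and 1 passed as higher in WT (0.891% of all tested genes) and 2 in WKO (1.49% of all) after confinement, with 0 lower. Counts this small cannot be weighed against the shares over all tested genes. Map3k8, a kinase that feeds the ERK pathway in macrophages, went from 233 ± 71.2 to 634 ± 80.5 in WT (rise of 1.47, limma adjusted p 0.0178). In WKO it went from 358 ± 138 to 916 ± 148 (rise of 1.40, limma adjusted p 0.0181). Map2k3, a kinase that activates p38, rose by 0.86 in WKO (limma adjusted p 0.0192). The list had a median log2 difference of 0.08 in WT and 0.16 in WKO, against -0.007 and -0.013 over all tested genes. Its RNA levels say nothing of kinase activity.

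Of 27 textbook AP-1 target genes, 23 were tested, and 5 passed as higher in WT (0.891% of all tested genes) and 4 in WKO (1.49% of all) after confinement, with 0 lower. In WT these were Il1b, Tnf, Ptgs2, Vegfa and Hmox1, and in WKO the first 4 of these. Tnf and Il1b, inflammatory cytokines, and Ptgs2, the inducible cyclooxygenase, moved most. Tnf went from 70.2 ± 1.52 to 7467 ± 5270.3 in WT and from 78.2 ± 64.6 to 8046 ± 7994 in WKO, with limma adjusted p of 0.0026 and 0.00132 and a wide spread among confined libraries. Vegfa, an angiogenic factor, went from 1406 ± 323 to a mean of 2526 in WT (rise of 0.85, limma adjusted p 0.0427) and from 1080 ± 222 to 3326 ± 307 in WKO (rise of 1.63, limma adjusted p 0.000908). Hmox1, a haem-degrading enzyme, rose by 0.50 in WT (limma adjusted p 0.0467). The median log2 difference was 0.17 in WT and 0.44 in WKO, against -0.007 and -0.013 over all tested genes. Between the genotypes in confined cells Mmp14 was higher in WKO (2.07, limma adjusted p 0.016), where 1.38% of all tested genes were. Mmp9 (-1.97, limma adjusted p 0.0185) and Ccnd1 (-0.90, limma adjusted p 0.0159) were lower, where 1.2% were. Many of these targets also answer to other factors, and the list does not measure AP-1 activity.

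Genes with the profile most like that of each member were found by the root mean square difference between log2 values over the 10 libraries, each gene centred on its mean, among 10182 genes with a mean of at least 50. For Fos the closest were Ier2 (0.34), Nfkbid (0.35) and Slc25a33 (0.37), where Fos itself had a root mean square of 1.03 about its mean. For Fosb they were Nfkbiz (0.83), Il1b (0.95) and Socs3 (0.97), against 2.73 for Fosb. For Fosl1 they were Ier5 (0.27), Tnfrsf12a (0.29) and Zbtb2 (0.31), and for Fosl2 they were Tob1 (0.27), Ets2 (0.34) and Id2 (0.35). Jun was closest to Ier5 (0.17), Nfkbid (0.23) and Slc25a25 (0.25), so that Fos and Jun had Nfkbid in common and Fosl1 and Jun had Ier5. Junb was closest to Pim1 (0.18), Gadd45b (0.27) and Btg2 (0.29), and Maff to Dusp5 (0.41), Nfkbia (0.41) and Nr4a1 (0.42). Jund was closest to Helz2 (0.14), Nfkb2 (0.16) and Rhob (0.17), and Atf3 to Wsb1 (0.17), Elk3 (0.21) and Bag3 (0.21). Pim1 had group means of 1008 in WT unconfined, 4900 in WT confined, 1493 in WKO unconfined and 5912 in WKO confined libraries, next to 1890, 10303, 2733 and 11801 for Junb. Wsb1 had means of 2760, 2442, 2007 and 3245 in the same order, next to 6249, 5002, 4213 and 6627 for Atf3. Among the members themselves, Fos was closest to Fosl2 (0.39), Jun to Fosl1 (0.31) and Jund to Atf3 (0.30). The measure is a description over 10 libraries that share the same 4 groups.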

How the data were processed

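Each library was built from 5 ng of RNA with an mRNA kit, per the labels' protocols. What the authors deposited is 1 signal value per gene and library, a read count divided by a library factor. FastQC, Trim Galore, STAR and the builds GRCm38 and mm10 are named in the submitters' processing notes; the counting tool, annotation and use of strand are not given in the sources used here. Dividing by the value of 1 read gave whole numbers for 100% of entries (tolerance 1e-06), so whole reads were recovered; DESeq2's median-of-ratios factors equalled the deposited ones to within 2.22e-16. Such scaling removes depth, not differences in composition, GC content or length.

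Values were tested as log2(value + 1) with limma 3.58.1 in R 4.3.3, with 1 mean per group, a mean-variance trend and 6 residual degrees of freedom, over 12455 genes with a mean of at least 10. Alternatives included edgeR 4.0.16 (TMM, quasi-likelihood) and DESeq2 1.42.0 on the recovered reads. On those reads edgeR called 84 genes as higher and 32 as lower after confinement in WT and 156 and 30 in WKO, and DESeq2 called 209 and 123 in WT and 387 and 97 in WKO, against 111 and 33 and 185 and 29 with limma. The procedure was tested on simulated data. Similar transcripts were searched with blastn 2.17.0. The members and lists were chosen with earlier results of these data known. Named genes are the 9 members, the 3 genes most like each and, per list, those past the threshold. Counting floors cover counting error only, because PCR reads without molecular identifiers are not independent molecules.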

Additional observations from a re-analysis of the deposited data

How the results depend on the processing

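Counts of the 9 genes called stayed within 1.5 times the count given above in 61 comparisons under other settings and moved further in 8. With a library left out, 46 stayed and 4 moved further. These tallies pool all 5 comparisons and take a count of 0 that stayed 0 as unchanged. They therefore say little about the counts after confinement. Without the mean-variance trend 2 genes were called in WT and 3 in WKO after confinement; with only the WKO libraries fitted 3 were called in WKO. In confined cells the count between genotypes was 1 with edgeR, 2 with DESeq2 and 2 with array weights, against 0. With a library left out, between 2 and 5 genes were called in WT after confinement (2 without unconfined replicate 1), between 4 and 7 in WKO (4 without unconfined replicate 3) and between 0 and 1 between genotypes in confined cells (1 without WT unconfined replicate 1 or 3). A group left with 1 library is assumed to vary like the others. Over all tested genes, those called higher after confinement ranged from 15 (no trend) to 353 (only the groups compared) in WT and from 32 (only the groups compared) to 1087 (array weights) in WKO, against 111 and 185. The cause of these changes was not tested.

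Replicate numbers were checked as pairs: deviations of the 7 same-numbered pairs correlated between -0.11 and 0.076, and 0 of 8 libraries correlated best with their own number. In groups of 2 libraries the deviations mirror each other, so this check cannot show whether same-numbered libraries share mice or a batch. With the replicate number as a block, 1 gene was called between genotypes in unconfined cells (Fosb, adjusted p 0.0379), and 2 with the block and GC and length correction, against 0; the block moved no other count of called members by over 1.5 times. Numbers 5 and 6 occur in 1 library each, so the block fits WKO confined replicate 5 and WT confined replicate 6 exactly. Those libraries then carry no weight in any comparison under the block. Under the block the difference between genotypes in confined cells was 0.77 for Fosb (adjusted p 0.411) and 0.52 for Fosl2 (adjusted p 0.26). The estimate for Fosb in the interaction was -0.72, or -0.77 with GC and length correction.

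Direction changed in 8 estimates for single genes under other settings and in 13 with a library left out, none of which passed in either fit. With array weights these were, in confined cells between genotypes, Fosl1 (-0.28), Junb (-0.32), Jund (-0.12), Atf3 (-0.00069) and Maff (-0.12), and Fosb in the interaction (-0.33). With a library left out, the ranges were -0.13 to 0.45 for Fosl1 and -0.074 to 0.44 for Junb in confined cells between genotypes. In unconfined cells between genotypes they were -0.74 to 0.35 for Fos, -0.40 to 0.12 for Fosl2 and -0.026 to 0.95 for Junb. In the interaction they were -0.93 to 1.07 for Fosb and -0.81 to 0.17 for Junb. With 2 or 3 libraries a group, the 95% interval of the difference between genotypes included 0 for every gene except Fosb and Jund in unconfined and Fosb and Fosl2 in confined cells.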
